A study of Caenorhabditis elegans with 2 samples.

Results

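The nuclear hormone receptor (nhr) genes of *C. elegans* were examined in chromatin immunoprecipitation sequencing (ChIP-seq) peak lists of AHR-1, the worm member of the aryl hydrocarbon receptor family. Members were all protein-coding genes of the Ensembl WBcel235 annotation whose symbol begins with nhr-, which gave 269 of the 19973 coding genes on the 6 chromosomes. The worms were hermaphrodites of strain OP562, which carries the unc-119 allele tm4063 on chromosome III and the transgene wgIs562, encoding AHR-1 with GFP and FLAG at its C terminus. Late embryos were taken 3.5 h after egg bleaching, chromatin of whole animals was sonicated, and an antibody to GFP was used, per the description in the labels. Their antibody field names ahr-1. The 2 biological replicates formed 1 group, and no condition, untreated sample or untagged strain was compared here. The values therefore average over all cell types of the embryo and describe the tagged transgene product in a strain that carries the tm4063 allele.

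Nuclear receptors are transcription factors with a zinc-finger DNA-binding domain and a ligand-binding domain that can bind small lipophilic molecules. *C. elegans* has many more of them than insects or vertebrates. Most of these arose by expansion of a group related to vertebrate HNF4, and many lie close together on chromosome V. A small set has direct counterparts in insects and vertebrates. AHR-1 is a transcription factor of the bHLH-PAS class, unrelated to nuclear receptors in sequence, that pairs with AHA-1, and vertebrate AHR with its partner ARNT binds DNA at a core of GCGTG.

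Before any threshold there were 22949 regions in replicate 1 and 23313 in replicate 2. The list made from the pooled replicates held 13858 regions. Its label calls them peaks and background for IDR, so a region in it is not by itself a called peak. In all, 479 regions passed IDR, a procedure built on how alike regions rank in replicates. All 479 IDR regions were in the pooled list, where the last of them had rank 479, so they are the strongest pooled regions. The IDR list here thus equals a cut on pooled signal. A place in it does not show that the replicates ranked that region alike. Signal is the value the authors' peak caller gave each region; it has its own scale in each list, and rank 1 is the highest signal. A gene was counted when a summit lay in the window from 1500 bp before to 500 bp after any annotated 5′ end. Coordinates refer to build ce11 (WBcel235) and start from 1. Neither the labels nor the files give read depth, so the precision that depth sets on each region is unknown.

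AHR-1-GFP regions of the IDR list lay at 3 receptor genes, nhr-255, nhr-41 and nhr-142. The summits at nhr-255 and nhr-41 lay at tRNA genes, and the one at nhr-142 lay between diverging genes. The sequences within 100 bp of these summits are shown because they carry the 3 strongest regions at the family. All are the + strand of the RefSeq WBcel235 sequence. In the first pair, capitals mark the tRNA gene. The nhr-255 window is chrX:15741963-15742163 and the nhr-41 window is chrIV:1388187-1388387.
nhr-255: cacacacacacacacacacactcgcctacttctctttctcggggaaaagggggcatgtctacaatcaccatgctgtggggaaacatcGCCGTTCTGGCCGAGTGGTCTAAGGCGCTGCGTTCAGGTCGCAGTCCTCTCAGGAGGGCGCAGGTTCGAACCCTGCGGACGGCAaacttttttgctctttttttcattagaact
nhr-41: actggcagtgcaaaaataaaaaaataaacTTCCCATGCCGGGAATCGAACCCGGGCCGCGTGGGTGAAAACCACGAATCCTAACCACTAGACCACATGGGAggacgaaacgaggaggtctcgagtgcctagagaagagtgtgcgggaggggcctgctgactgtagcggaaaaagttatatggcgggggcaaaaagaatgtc
In the next 3, capitals mark GCGTG, the core of the AHR binding site. The windows are chrV:5790980-5791180 at nhr-142, chrII:2977813-2978013 at nhr-88 and chrX:17513558-17513758 at nhr-1. The nhr-88 and nhr-1 windows come from regions below the IDR threshold, one with GCGTG and the other, the shown example without it, with no match on either strand.
nhr-142: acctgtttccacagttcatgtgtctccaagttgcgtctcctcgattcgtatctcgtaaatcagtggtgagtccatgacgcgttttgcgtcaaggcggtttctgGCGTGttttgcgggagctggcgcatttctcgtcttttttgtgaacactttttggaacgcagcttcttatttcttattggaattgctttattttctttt
nhr-88: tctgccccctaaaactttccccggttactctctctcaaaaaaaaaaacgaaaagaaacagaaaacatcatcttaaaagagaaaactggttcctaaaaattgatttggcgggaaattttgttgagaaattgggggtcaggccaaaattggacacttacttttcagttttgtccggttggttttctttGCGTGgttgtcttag
nhr-1: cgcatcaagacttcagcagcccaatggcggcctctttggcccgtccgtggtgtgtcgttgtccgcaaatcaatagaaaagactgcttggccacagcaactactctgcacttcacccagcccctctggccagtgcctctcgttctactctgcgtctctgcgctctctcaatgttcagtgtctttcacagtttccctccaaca

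The region at nhr-255 (chrX:15741841-15742284) had a pooled signal of 125.9 and rank 141. Its signal was 74.6 in replicate 1, rank 133, and 52.2 in replicate 2, rank 154. No other nhr gene had a summit among the 479 strongest regions of both replicate lists. The summit at 15742063 lay 547 bp upstream of nhr-255, within the tRNA-Leu gene ZK678.t1 (chrX:15742050-15742133, + strand, 84 bp). That tRNA gene has 2 exact copies in the genome, while the 201-bp window has 1. The same summit also lay in the window of srg-64, a gene named for a serpentine receptor.

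At nhr-41, the worm counterpart of vertebrate TR2 and TR4 and of insect DHR78, the IDR region (chrIV:1388065-1388508) had a pooled signal of 82.2 and rank 343. Replicate 1 gave it a signal of 62.1 and rank 214, and replicate 2 gave 21.9 and rank 1591. The replicates thus ranked it far apart, and its −log10 q was 2.66 in replicate 1 and 0.731 in replicate 2. Its summit at 1388287 lay 190 bp downstream of one of 5 annotated 5′ ends, inside an intron of nhr-41 (chrIV:1386215-1399353, + strand). That position is the end of the tRNA-Glu gene Y104H12A.t1 (chrIV:1388216-1388287, − strand, 72 bp), which has 15 exact copies in the genome. A GCGTG lay inside the tRNA gene at chrIV:1388244-1388248, 39 bp from the summit. The handling of multiply mapped reads is unknown. The part of the tRNA genes in both regions was not tested.

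The region at nhr-142 (chrV:5790858-5791301) had a pooled signal of 76.2 and rank 405. Replicate 1 gave a signal of 39.1 and rank 654, and replicate 2 gave 32.9 and rank 425. Both replicates placed it among their strongest regions, with a −log10 q of 1.18 and 1.97. The summit at 5791080 lay 527 bp upstream of nhr-142 (chrV:5785957-5790553, − strand) and 150 bp upstream of F44E7.9 (chrV:5791230-5792229, + strand), so the nearer 5′ end was that of F44E7.9. The window of ZC250.2 also held it. A GCGTG at chrV:5791083-5791087 lay 3 bp from the summit as part of TNGCGTG, the longer form of the AHR site. A second, weaker pooled region of nhr-142 had a signal of 36.1 and rank 4667 and was matched in replicate 1 alone.

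**Figure D1:**
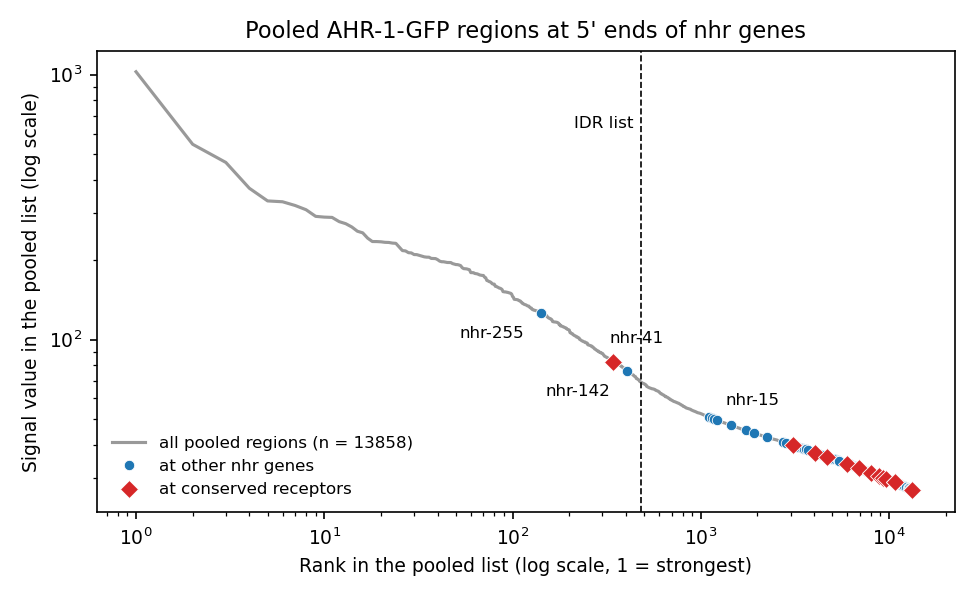
Signal against rank (both log scales) of all 13858 pooled regions (line), with the regions at conserved nhr receptors (diamonds) and at other nhr genes (circles). The dashed line is the end of the IDR list, above which nhr-255, nhr-41 and nhr-142 lie, followed by a gap down to nhr-15 at rank 1104.

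The 3 genes were 1.12% of the 269 receptors (Wilson 95% interval 0.380 to 3.23%), against a background of 2.58% of all coding genes. Weighting coding genes to the chromosomes of the receptors gave 2.02%. Both figures lay within the interval. Without regions near small RNA genes nhr-142 alone was left of the 3 (0.372% of receptors). The same filter left 442 of the 516 coding genes with an IDR summit (2.21%). With each summit given to its nearest gene nhr-142 was lost instead, which left 0.743% of receptors beside 1.57% of all coding genes. The interval covers counting error only and takes genes as independent, although neighbours can share a region. In the pooled list 67 receptors (24.9%, 20.1 to 30.4%) had a summit against 29.9% of all coding genes and 26.6% after the same weighting. The weighted background lay inside the interval in both lists. At intermediate strengths of the pooled list the receptors stood lower. Among the 1000 strongest pooled regions 1.12% of receptors (0.380 to 3.23%) had a summit beside 4.50% of all coding genes. Among the 2000 strongest it was 3.72% (2.03 to 6.71%) beside 7.25%, or 5.97% after weighting, and among the 4000 strongest 7.06% (4.57 to 10.8%) beside 11.9%. The unweighted background thus lay above the interval at these 3 limits, and the weighted one, computed at 2000, lay inside it. Among the 6929 strongest the receptors' share was 14.5% (10.8 to 19.2%) and the unweighted 17.8% lay inside the interval. The replicates differed at the 3 limits. Among the 2000 strongest, replicate 1 gave 3.35% (1.77 to 6.24%) beside 6.65%, above the interval. Replicate 2 gave 4.83% (2.85 to 8.09%) beside 7.25%, inside it. The same held at 4000, and at 1000 the reverse.

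The pooled regions at these genes were weak. The 67 genes took 88 gene and region pairs from 87 regions, with signals of 27.0 to 125.9 and a median of 33.1, beside 33.2 for regions at all coding genes. Outside the IDR list the 84 remaining regions had signals of 27.0 to 51.1 and a median of 32.9. Their −log10 q was 0.0191 to 0.752 with a median of 0.0949, beside a median of 0.0901 for such regions at all coding genes. The lower the −log10 q, the less a region stands apart from background. Of the 67 genes, 53 had a single summit and 14 had more, and 202 receptors had none. The most summits were 6, at nhr-66.

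Of the 87 regions, 79 had an nhr 5′ end as their nearest coding one and 8 lay nearer another gene. A further view of sharing is that 16 summits lay in the window of another coding gene too. The summit lay between genes for 46 regions (52.9%, beside 42.2% for regions at all coding genes), in an intron for 20 (23%, beside 27.0%) and in coding sequence for 13 (14.9%, beside 19.9%). Of the 88 pairs, 67 (76.1%) lay upstream of the 5′ end, beside 77.5% for all coding genes, at a median distance of 485.5 bp, beside 422 bp. Only 2 of the 87 (2.30%, beside 3.51%) lay within 250 bp of a small RNA gene, and these were the IDR regions at nhr-255 and nhr-41. Over all coding genes 216 of 6147 regions lay so near, 154 of them among the 5813 below the IDR threshold (2.65%).

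Below the IDR threshold the strongest regions lay at nhr-15, nhr-1, nhr-280 and nhr-88. The region at nhr-15 (chrV:311393-311836) had a pooled signal of 51.1 at rank 1104, with 41.6 at rank 552 in replicate 1 and 19.0 at rank 2892 in replicate 2. It lay 50 bp from the 5′ end of phf-10 and 1106 bp from that of nhr-15. The region at nhr-1 (chrX:17513436-17513879) had a pooled signal of 50.6 at rank 1143, no overlapping region in replicate 1, and 34.7 at rank 378 in replicate 2. Thus a region absent from one replicate list stood high in the pooled one. At nhr-280 the pooled signal was 50.1, with 24.0 in replicate 1 and 22.8 in replicate 2, and the nearest 5′ end was that of pals-22. At nhr-88 (chrII:2977691-2978134, in an intron) it was 49.8, with 36.3 at rank 894 in replicate 1 and 15.3 at rank 6933 in replicate 2. Its GCGTG lay 86 bp from the summit, also as TNGCGTG.

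Next in order came nhr-243 with a pooled signal of 47.5, nhr-114 with 45.4, nhr-234 with 44.4, nhr-65 with 42.8 and nhr-58 with 40.96. These were followed by nhr-49 with 40.6, nhr-64 with 39.9 and nhr-228 with 39.4. The replicates ordered them differently. The nhr-65 region had rank 1763 in replicate 1 and 22247 in replicate 2, while that of nhr-58 had rank 13580 in replicate 1 and 1311 in replicate 2. The strongest nhr-49 region had no counterpart in replicate 1 and rank 518 in replicate 2. A weaker nhr-49 region that overlaps it, at pooled rank 4183, matched the same region of replicate 2 and one of rank 3110 in replicate 1. The strongest nhr-64 region had rank 3131 in replicate 1 and no counterpart in replicate 2.

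The replicates were then compared over all receptors. Replicate 1 had a summit at 97 of the 269 (36.1%) against 42.6% of all coding genes, and replicate 2 at 106 (39.4%) against 44.5%. Both lists had one at 46 receptors (17.1%, 13.1 to 22.1%) against 26.1%, or 22.5% when weighted by chromosome. The weighted share was just above the interval and the unweighted one further above it, and no test of the difference was made. The 46 were 47.4% of the receptors with a summit in replicate 1 and 43.4% of those in replicate 2, beside 61.3% and 58.7% over all coding genes.

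Cutting each replicate list to its 13858 strongest regions separated them. Replicate 1 then had a summit at 51 receptors (19.0%, 14.7 to 24.1%) beside 29.5% of all coding genes and 26.2% after weighting. Replicate 2 had one at 78 (29.0%, 23.9 to 34.7%) beside 30.5% and 26.9%. The receptors thus lay below the weighted background in replicate 1 and above it in replicate 2. The weighted background lay above the interval of replicate 1 and inside that of replicate 2. Against all coding genes without weighting, and with the whole lists, the receptors' share was the lower one in both replicates. The difference between replicates was not tested.

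**Figure D2:**
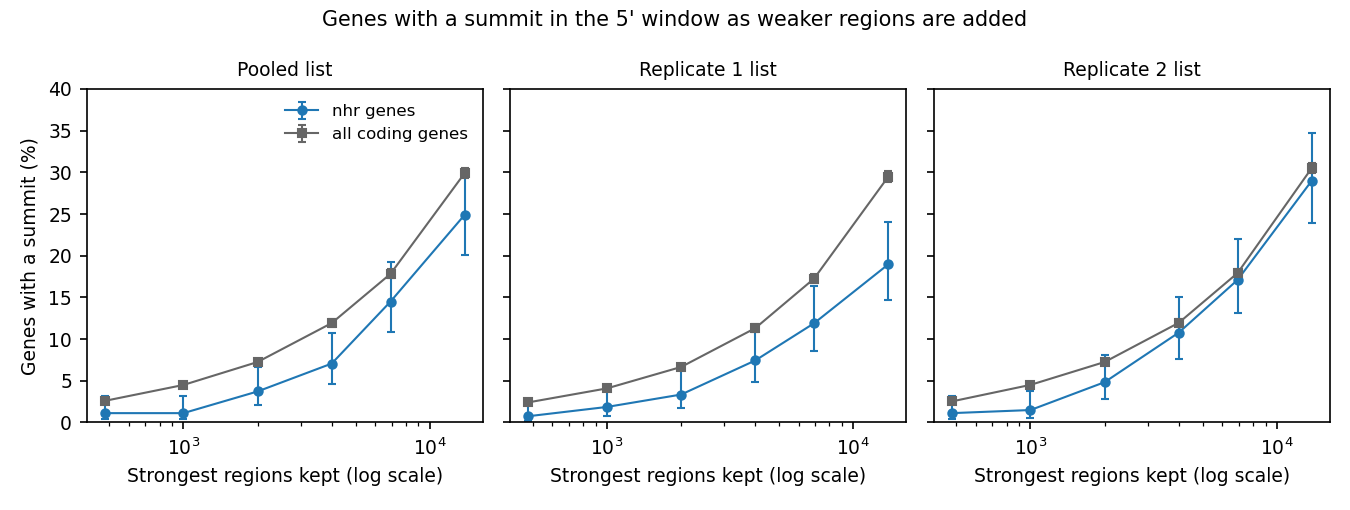
Percent of genes with a summit in the 5′ window (points, with Wilson 95% intervals) as weaker regions are added, from 479 to 13858 strongest (log scale), in the pooled list and in each replicate, for nhr genes and all coding genes. At 13858 regions nhr genes stand at 19.0% in replicate 1 and 29.0% in replicate 2.

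Of the 87 pooled regions, 71 overlapped a region of replicate 1 and 63 one of replicate 2, by at least 1 bp. Both lists had one for 48 (55.2%, beside 57.6% for regions at all coding genes), 23 were matched in replicate 1 alone, 15 in replicate 2 alone and 1 in neither. Spearman's rho of the replicate ranks was 0.114 over the 48 regions, beside 0.396 over 3542 regions at all coding genes. Without the 3 IDR regions it was -0.040 over 45, beside 0.203 over 3208. These are descriptions only: the regions were selected in a list made from both libraries, which all points share. Overlapping pooled regions also matched the same replicate regions at nhr-65, nhr-122 and nhr-66, so their pairs of ranks were counted more than once. At receptors below the IDR threshold the ranks of the replicates thus showed no clear relation.

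**Figure D3:**
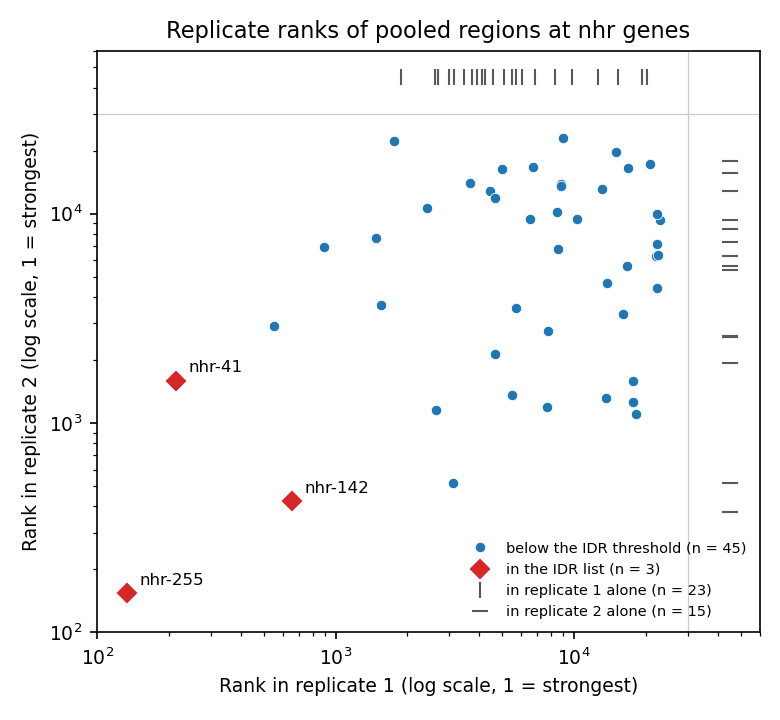
Rank in replicate 1 against rank in replicate 2 (both log scales, 1 = strongest) of the 48 pooled regions at nhr genes found in both lists, with those found in 1 list as ticks at the edge. The 3 IDR regions (diamonds) lie at the lower left, and the 45 others spread without a diagonal trend.

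Chromosome V held 167 of the 269 receptors. The others were 33 on IV, 23 each on I and X, 15 on II and 8 on III. On V a pooled summit lay at 35 of 167 (21.0%, 15.5 to 27.7%) against 23.8% of the coding genes of V. Off V it lay at 32 of 102 (31.4%, 23.2 to 40.9%) against 31.9%. The share was lower on V than off it for receptors and for all coding genes alike. The other chromosomes held few receptors and did not all follow their background. On I it was 26.1% (12.5 to 46.5%) beside 37.1% of coding genes, on II 33.3% (15.2 to 58.3%) beside 30.1%, and on IV 21.2% (10.7 to 37.8%) beside 27.1%. On III it was 62.5% (30.6 to 86.3%) beside 38.0%, and on X 39.1% (22.2 to 59.2%) beside 28.9%. The background lay inside each of these intervals. The IDR genes lay on X, IV and V.

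Within V, a pooled summit lay at 28 of the receptors on the arms (25.2% of them, all coding genes 26.6%). In the middle, the inner 50% of the chromosome's length, it was 7 of 56 (12.5%, 6.19 to 23.6%), beside 21.3% of coding genes there, a value inside the interval. A summit in both replicate lists was held by 19 of 167 receptors on V (11.4%, 7.41 to 17.1%, all coding genes of V 19.3%) and by 27 of 102 off V (26.5%, 18.9 to 35.8%, all coding genes off V 28.4%). The lower share in both lists was thus seen on V, where the background lay above the interval, and off V the background lay inside it.

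**Figure D4:**
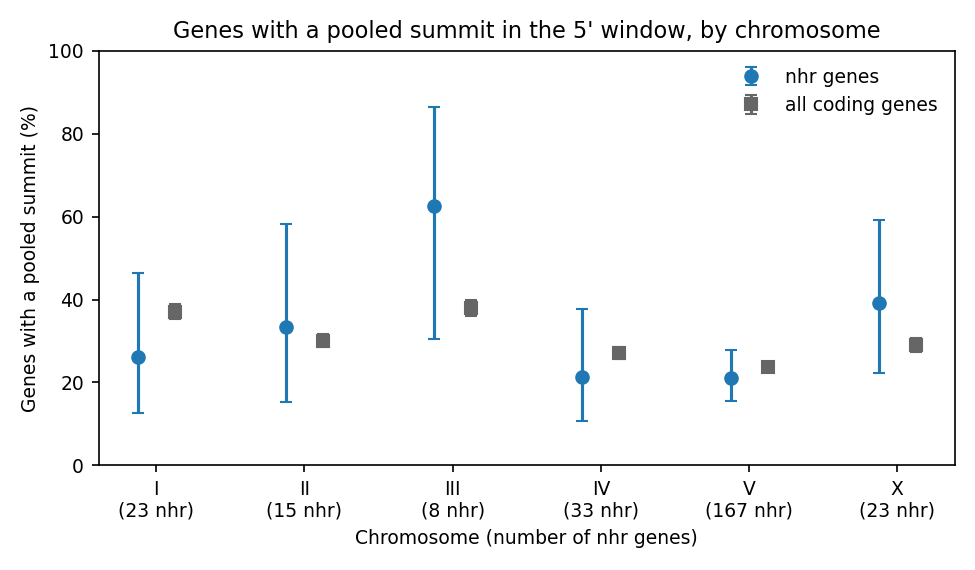
Percent of nhr genes and of all coding genes with a pooled summit in the 5′ window on each chromosome, with Wilson 95% intervals and the number of nhr genes under each chromosome. Receptors stand at 21.0% on V, where 167 of them lie, and the intervals on the other chromosomes are wide.

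Many receptors lie in runs of neighbours, with gaps of at most 20 kb. Over all chromosomes 33 of 96 receptors outside runs (34.4%) had a pooled summit, beside 34 of 173 in runs (19.7%) and 29.9% of all coding genes. On V it was 9 of 39 outside runs (23.1%, 12.6 to 38.3%) and 26 of 128 in runs (20.3%, 14.3 to 28.1%), beside 23.8% of coding genes there. Off V it was 24 of 57 (42.1%, 30.2 to 55.02%) and 8 of 45 (17.8%, 9.29 to 31.3%), beside 31.9%. The gap between single receptors and runs was thus wider off V than on it, and it was not tested. The 8 conserved receptors with a pooled summit, described below, all lay off V and outside runs. Single position and conserved class thus overlap there, and the part of each was not tested. In the largest run, on V, 12 receptors from nhr-123 to nhr-131 (chrV:451451-497297), 2 had one, nhr-202 and nhr-201, with a best signal of 28.0 at rank 12019. Both were counted from the same summit, in an intron of nhr-201, whose 5′ end was the nearest at 145 bp. The run of 10 from nhr-13 to nhr-96 (chrV:2192485-2235180) held 4, nhr-184, nhr-56, nhr-126 and nhr-96, with a best signal of 37.0 at rank 4269. The run of 10 from nhr-185 to nhr-156 (chrV:3844429-3908452) held 1, nhr-186, with a signal of 27.5 at rank 12762. Members of a run share neighbourhood and sequence and are not independent.

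Among the 13 nhr- genes listed as having direct counterparts in other animal groups, 8 (61.5%, 35.5 to 82.3%) had a pooled summit. It was 59 of the 256 others (23%, 18.3 to 28.6%) and 29.9% of all coding genes. Off V the shares were 8 of 12 (66.7%) and 24 of 90 (26.7%). The conserved genes had more annotated 5′ ends, 2.69 on average beside 1.55, and therefore windows of 3.57 kb beside 2.32 kb. Per 10 kb of window they held 2.80 pooled regions beside 1.26. All coding genes held 1.63, and those off V, where 12 of the 13 lie, held 1.74. Overlapping regions were counted separately, such as the 2 at nhr-6, which match the same region of replicate 2. Among genes with a single 5′ end, none of 4 conserved receptors had a summit (Wilson upper limit 49%) and 32 of 170 others did (18.8%). With more than 1 end it was 8 of 9 (88.9%) and 27 of 86 (31.4%). Over all coding genes the shares were 25.5% with 1 end and 42.3% with more, so the number of 5′ ends moved with the result. Its part was not tested. The 13 were listed from general knowledge of the family, and receptors without an nhr- symbol were not eligible. With the stronger 6929 pooled regions 38.5% of the 13 had a summit, beside 17.8% of all coding genes. With the strongest 2000 it was 7.69% beside 7.25%. With the strongest 13858 regions of replicate 1 alone 38.5% of them had a summit, and with those of replicate 2 alone 69.2%.

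By role, the conserved receptors nhr-23 and nhr-25, related to insect DHR3 and FTZ-F1 and needed for moulting, had weak regions. The strongest at nhr-23 had a pooled signal of 36.2 at rank 4658, 32.2 at rank 1478 in replicate 1 and 14.9 at rank 7627 in replicate 2. At nhr-25 it was 30.6 at rank 8875, and the best region of replicate 2 in its window had rank 1109 while that of replicate 1 had rank 18147. Replicates thus ordered this pair oppositely. The nhr-64 receptor, related to HNF4, had 39.9 at rank 3087, and nhr-48, a relative of the steroid receptor DAF-12, had 37.4 at rank 4046. The NR4A relative nhr-6, which acts in the spermatheca, had 31.5 at rank 8003 and no summit of replicate 1 in its window. The Rev-erb and E75 relative nhr-85 had 34.1 at rank 5980 and the GCNF relative nhr-91 had 28.9 at rank 10766. No pooled summit lay at nhr-8, nhr-67, nhr-69, nhr-111 or nhr-239. Of these, nhr-8 alone had a summit in both replicate lists, at rank 14111 in replicate 1 and 11087 in replicate 2, and nhr-67, the tailless relative, had none in any list.

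The role lists were short and are to be read beside 29.9% of all coding genes, or 25.5% of those with 1 annotated 5′ end and 42.3% of those with more. Of the 9 receptors listed for lipid and energy metabolism, 5 had a pooled summit (55.6%, 26.7 to 81.1%). These were nhr-49, which controls fat use and desaturation, with 40.6, nhr-114 with 45.4, nhr-66, a partner of nhr-49, with 39.1, nhr-80, a regulator of fatty acid desaturases, with 34.1, and nhr-10, which acts in propionate breakdown, with 32.2. None lay at nhr-13, nhr-31, nhr-62 or nhr-68. At nhr-49 the window held 4 pooled regions and at nhr-66 it held 6, some of which overlap each other and share one replicate region, so they are not independent of each other. Of the 5 receptors listed for xenobiotic, pathogen and hypoxia responses (nhr-8, nhr-86, nhr-176, nhr-45 and nhr-57) none had one, which allows a share of up to 43.4% by the Wilson interval. Of the 7 listed for embryo and development, 3 did (42.9%, 15.8 to 75.0%, at nhr-23, nhr-25 and nhr-6), and nhr-2, nhr-40, nhr-60 and nhr-67 did not. The 29.9% lay inside the interval of each of these 3 lists. No member of these lists had an IDR summit.

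Receptors with other symbols and genes that act with nuclear receptors were taken from lists as well. Among 5 receptors (daf-12, unc-55, fax-1, odr-7 and sex-1) only daf-12, the receptor for dafachronic acids, had a pooled summit, with 28.3 at rank 11601, although the best region of replicate 1 in its window had rank 1001. Of 6 partners and ligand enzymes, 3 had a pooled summit (50%, 18.8 to 81.2%), and of the 5 receptors 1 did (20%, 3.62 to 62.4%). The 29.9% of all coding genes lay inside both intervals. The CBP/p300 homologue cbp-1 had an IDR region (chrIII:9765374-9765817) with a pooled signal of 73.3 at rank 440, 50.2 at rank 343 in replicate 1 and 26.5 at rank 772 in replicate 2. Its summit lay 913 bp upstream of the gene. The DAF-12 corepressor din-1 had 52.5 at rank 999, and the Mediator subunit mdt-15, a coactivator of NHR-49, had 41.6 at rank 2581. The mdt-15 summit lay 410 bp downstream of its 5′ end and 178 bp from that of R12B2.13, the nearer gene. None lay at gei-8, daf-9 or daf-36. Among all these genes, cbp-1 alone had an IDR region. That is 1 of the 6 partners and ligand enzymes (16.7%, 3.01 to 56.4%) and 0 of the 5 receptors (0 to 43.4%). Over all coding genes the share was 2.58%. A single gene sets the share of the 6, and no test was made.

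**Figure D5:**
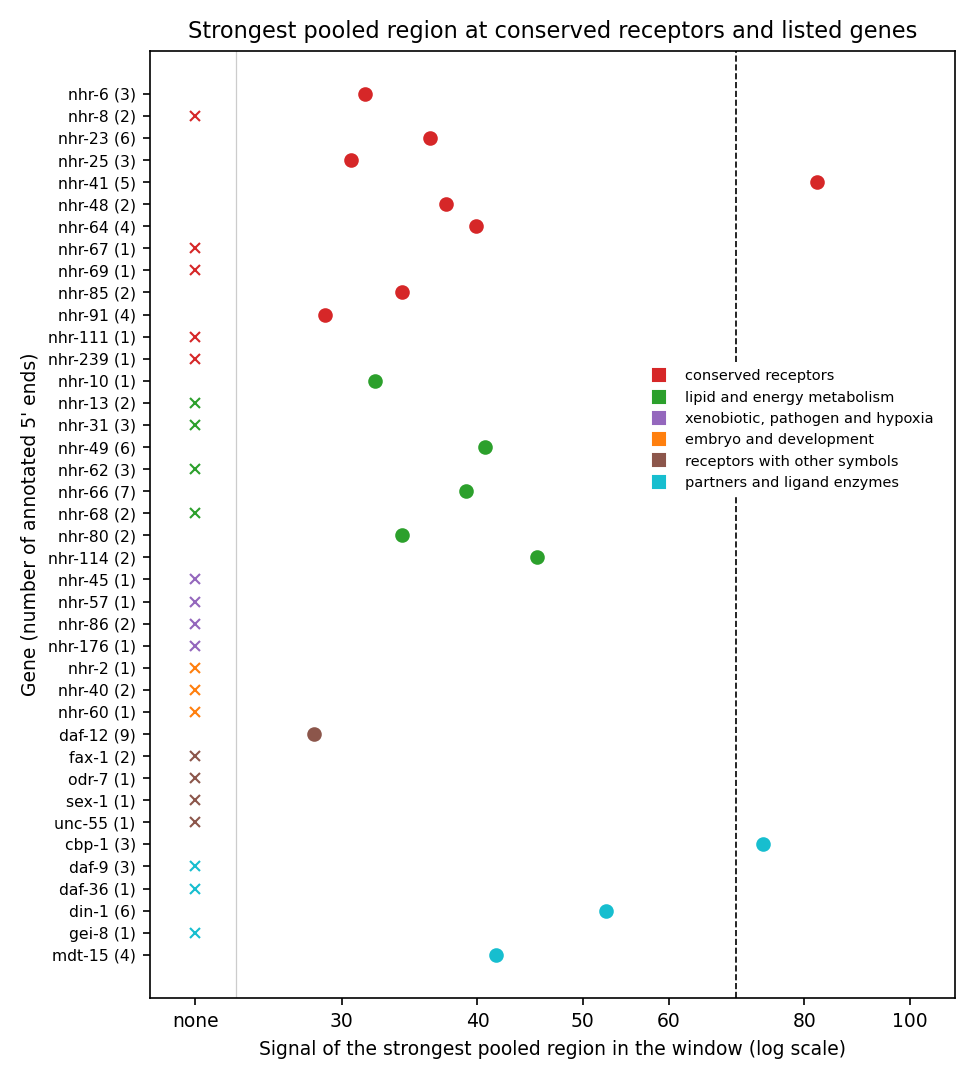
Signal of the strongest pooled region (log scale) in the window of each conserved receptor and listed gene, with the number of annotated 5′ ends after each name; crosses at the left mark genes with no pooled summit. The dashed line is the lowest IDR signal, 69.2, which nhr-41 and cbp-1 exceed.

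The receptors were set beside 3 other gene families named by symbol. A pooled summit lay at 30 of 193 str- genes, which code for chemoreceptors (15.5%, 11.1 to 21.3%), at 20 of 63 ceh- homeobox genes (31.7%, 21.6 to 44.0%) and at 12 of 74 cyp- genes of cytochrome P450 enzymes (16.2%, 9.53 to 26.2%). The 29.9% of all coding genes lay above the intervals of the str- and cyp- genes and inside those of the ceh- genes and the receptors. The receptors' 24.9% lay between the 3 families. The families were not weighted by chromosome, and no test of the differences was made.

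Motifs were counted on both strands within 100 bp of each summit, where TNGCGTG contains the shorter motif. The short core, GCGTG, was present at 14 of the 87 summits at receptors (16.1%, 9.83 to 25.2%), beside 18.8% of the 6147 at all coding genes. In the IDR list it was at 2 of 3 receptor summits, beside 41% of 334, and below the threshold at 12 of 84 (14.3%) beside 17.5%. TNGCGTG was at 4 (4.60%) beside 5.21%. AGGTCA, the core hexamer of many nuclear receptors, was at 6 (6.90%) beside 5.53%, and GAGAGA at 16 (18.4%) beside 16.3%. The summits at receptors thus carried these letters about as often as other summits.

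In the 300 bp from 250 bp before to 50 bp after a 5′ end, GCGTG was in 39 of 269 receptor promoters (14.5%, 10.8 to 19.2%), beside 19.1% of all coding promoters. GAGAGA was in 83 (30.9%, 25.6 to 36.6%), beside 21.8%. The mean GC content was 35.1% beside 34.8%. AGGTCA was in 29 (10.8%, 7.61 to 15.1%), beside 8.23%, and TNGCGTG in 8 (2.97%, 1.51 to 5.76%), beside 5.81%. The background thus lay below the interval for GAGAGA, just above it for TNGCGTG and inside it for the others, and no test was made. Among receptors with a pooled summit GCGTG was in 13 of 67 promoters (19.4%) and among those without in 26 of 202 (12.9%). A match describes letters only and is neither a site nor a cause.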

How the data were processed

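Peak lists of AHR-1-GFP ChIP-seq from 2 biological replicates, their pooled list and the IDR list were used on build ce11, per the labels. The ce10 lists were not used. Each region carries a signal and a −log10 q value, both from the authors' peak caller, as deposited. Among steps not given in the sources used here are alignment, peak calling, the IDR threshold and the treatment of multiply mapped reads, and read depth is unknown. The control library was not analysed here.

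Regions were joined to the Ensembl release 115 annotation and the RefSeq WBcel235 sequence, the assembly that ce11 names, within whose chromosome lengths every region lay. Windows, counts and motifs were computed in Python 3.11.15 (pandas 2.3.3, numpy 2.4.6), intervals in scipy 1.17.1 and plots in matplotlib 3.10.9, and the scripts were tested on simulated data with planted summits and motifs. With 1 group, and the control library not analysed, there was no test. Shares are given with Wilson 95% intervals, which cover counting error only. Chromosome-weighted shares average all coding genes with the weights of the nhr genes.

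The genes named are those with an IDR summit, the 15 of highest pooled signal, the 13 conserved receptors, the role lists and the 3 largest runs of neighbours. Neighbouring genes named beside them share the summit. The members and lists were chosen with earlier results of these data known. Alternatives changed the window, the gene assignment, the strength of the regions, the small RNA filter and the replicate used.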

Additional observations from a re-analysis of the deposited data

How the results depend on the processing

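Of 57 alternative values, 19 moved, a count by over 1.5 times or a share beyond its own Wilson interval, and 38 did not. The interval of the 13 conserved receptors is wide, so a fall from 61.5% to 38.5% (narrow window, stronger 6929 regions, or replicate 1 alone) is among the 38. The 3 receptors with an IDR summit became 1 with a narrow window (500 bp before to 200 bp after a 5′ end) and 1, nhr-142, without regions near small RNA genes. They became 0 when, in addition, each summit counted only for its nearest gene, a combination chosen after seeing the data. The strongest 479 regions of a single replicate gave 2 to 3. The 67 with a pooled summit became 28 with the narrow window, 103 with a wide one (3000 bp before to 500 bp after), 39 with the stronger 6929 regions, 10 with the strongest 2000, and 51 to 78 with a single replicate. As shares of receptors and of all coding genes these are 10.4% and 15.5% (narrow), 38.3% and 41.5% (wide), 14.5% and 17.8% (6929 regions), 3.72% and 7.25% (2000), 19.0% and 29.5% (replicate 1 alone) and 29.0% and 30.5% (replicate 2 alone). On V, 21.0% became 7.19% (narrow), 34.1% (wide), 10.8% (6929 regions), 2.40% (2000) and 15.6% to 21.6% (single replicate). Off V, 31.4% became 15.7% (narrow), 45.1% (wide) and 24.5% to 41.2% (single replicate). Among conserved receptors 61.5% became 92.3% (wide), 7.69% (2000) and 38.5% to 69.2% (single replicate). Among the others 23% became 8.98% (narrow), 35.5% (wide) and 18.0% to 27.0% (single replicate). Wider windows and longer lists hold more summits by construction, and the cause of the spread between replicates was not tested. No paired analysis was possible because there was 1 group only. A comparison by P-box residues was not run, since no protein sequences were used here.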
